A study of Mus musculus with 6 samples.

Results

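Alpha granules are the most abundant secretory granules of platelets and are built in the megakaryocyte, the large polyploid marrow cell that sheds platelets. They hold chemokines, clotting factors and adhesive proteins, carry the adhesion receptor P-selectin in their membrane, and depend on sorting proteins such as NBEAL2 and VPS33B, whose loss in humans leaves platelets poor in alpha granules. The genes described here are the cargo genes Pf4, Ppbp, F5, F13a1, Thbs1, Mmrn1 and Sparc, the granule membrane gene Selp and the biogenesis gene Vps33b. They were chosen by name from a list of 10, and 9 had an array row whose platform annotation gave that gene's symbol alone, out of 30063 genes with such a row. The row that carries the symbol of Nbeal2 also carries that of a microRNA gene, and Nbeal2 was not analysed here.

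Megakaryocytes had been sorted by flow cytometry from bone marrow of female C57 mice, taking cells with high side scatter, high CD41 and a DNA content of at least 8N. The 2 groups were mice with acute myeloid leukaemia (AML) induced by the fusion oncogene MLL-AF9 and healthy control mice, with 3 arrays each, called biological replicates by the labels. The labels give neither the animals' age, nor how the fusion gene was introduced, nor which cells carried it, nor whether animals were pooled, so the p-values below measure the spread between these samples. Values are log2 expression values deposited by the authors, differences are AML minus control on that scale, a value after ± is the SD among a group's arrays (n = 3), and their small number limits the precision.

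The sorts of both groups carried the transcripts of the labelled cell type. All 14 measured megakaryocyte identity genes, among them Itga2b, Gp9, Treml1 and Tubb1, had group means above the background level of 5.51, the 95th percentile of the means of 1718 olfactory and vomeronasal receptor genes, and their median was 9.15, 8.51 and 9.49 on AML arrays 1, 2 and 3, against 9.05, 8.72 and 8.73 on control arrays 1, 2 and 3. At the threshold given below, 1 of these 14 genes fell, Plek (difference -0.64), and 0 rose. The median difference of the 14 was +0.26, with 1 difference below 0. Transcripts of other marrow cells were present in the sorts as well and differed between the groups. Over all genes, 6.25% fell and 4.49% rose at that threshold. When only the 13242 genes above the background level were tested, 2020 fell and 1053 rose, both larger shares. Of 18 monocyte and macrophage markers, 16 fell, and their summed level on the log2 scale was 12.87 to 13.23 in AML, against 13.64 to 13.81 in control. Of 12 neutrophil markers, 10 fell (summed level 12.90 to 13.23 in AML, against 14.47 to 14.70 in control), and of 14 endothelial and stromal markers 4 fell and 1 rose (10.24 to 10.62 in AML, against 10.64 to 10.73 in control). Of 12 basophil, mast cell and eosinophil markers 8 fell, of 9 B and plasma cell markers 5 fell, and of 6 erythroid markers 3 fell. Markers of MLL-AF9 blasts and myeloid progenitors went the other way, with 6 of 12 higher, 0 lower and a summed level of 12.38 to 12.69 in AML, against 11.90 to 12.26 in control. AML array 3 stood apart in 2 measures of the arrays themselves, with a mean of 11.71 over 4 hybridization control rows, against 10.99 and 10.73 on AML arrays 1 and 2 and 10.73 to 11.11 on the control arrays, and a median of 3.81 over the receptor genes, against 3.51 and 3.46 on AML arrays 1 and 2 and 3.29 to 3.45 on the control arrays. In such a bulk sort, fewer cells of a type and less RNA per cell cannot be told apart. The median difference over all genes was +0.11. The same median was +0.03 over genes at or above the median level, and +0.01 over genes whose mean was above the background level. Differences relative to the shift over all genes are given in places, and that shift is larger than the one among genes above background.

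Among the alpha granule genes, F5 fell 1.51-fold in megakaryocyte sorts of leukaemic marrow, F13a1 and Sparc stood lower by 0.96 and 0.57 without passing the test, and the other 6 lay between -0.20 and +0.25 with groups that overlapped. By limma's moderated test, adjusted over all genes by the Benjamini-Hochberg method at a threshold of 0.05, 1 of the 9 genes fell in AML, the clotting factor gene F5, and 0 rose. Over all genes 10.7% passed that threshold, 6.25% lower and 4.49% higher, a balance of 1880 lower to 1350 higher genes that became 2712 to 505 under median centring and 669 to 146 with each array centred on its megakaryocyte identity genes (identity centring, chosen after seeing the data). Without adjustment, at a p under 0.05, 3 of the 9 were lower (F5, F13a1 and Sparc) and 0 higher. The median difference of the 9 genes was -0.14, against +0.11 over all genes and +0.01 over genes whose mean was above the background level. The call of F5 was kept in 7 of the 17 alternatives described below. Without AML array 3, F5 and F13a1 were past the threshold, while neither passed on leaving out any other single array. In the fit without AML array 3, the differences of the genes with no call were -0.42 for Sparc, -0.23 for Pf4, -0.23 for Ppbp, -0.22 for Thbs1, -0.16 for Selp, -0.07 for Mmrn1 and +0.28 for Vps33b (smallest limma adjusted p = 0.0575, for Vps33b). The AML and control values of F5, F13a1 and Sparc did not overlap, which was so for 41.3% of all genes, 13.1% with AML below and 28.2% with AML above.

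**Figure D1:**
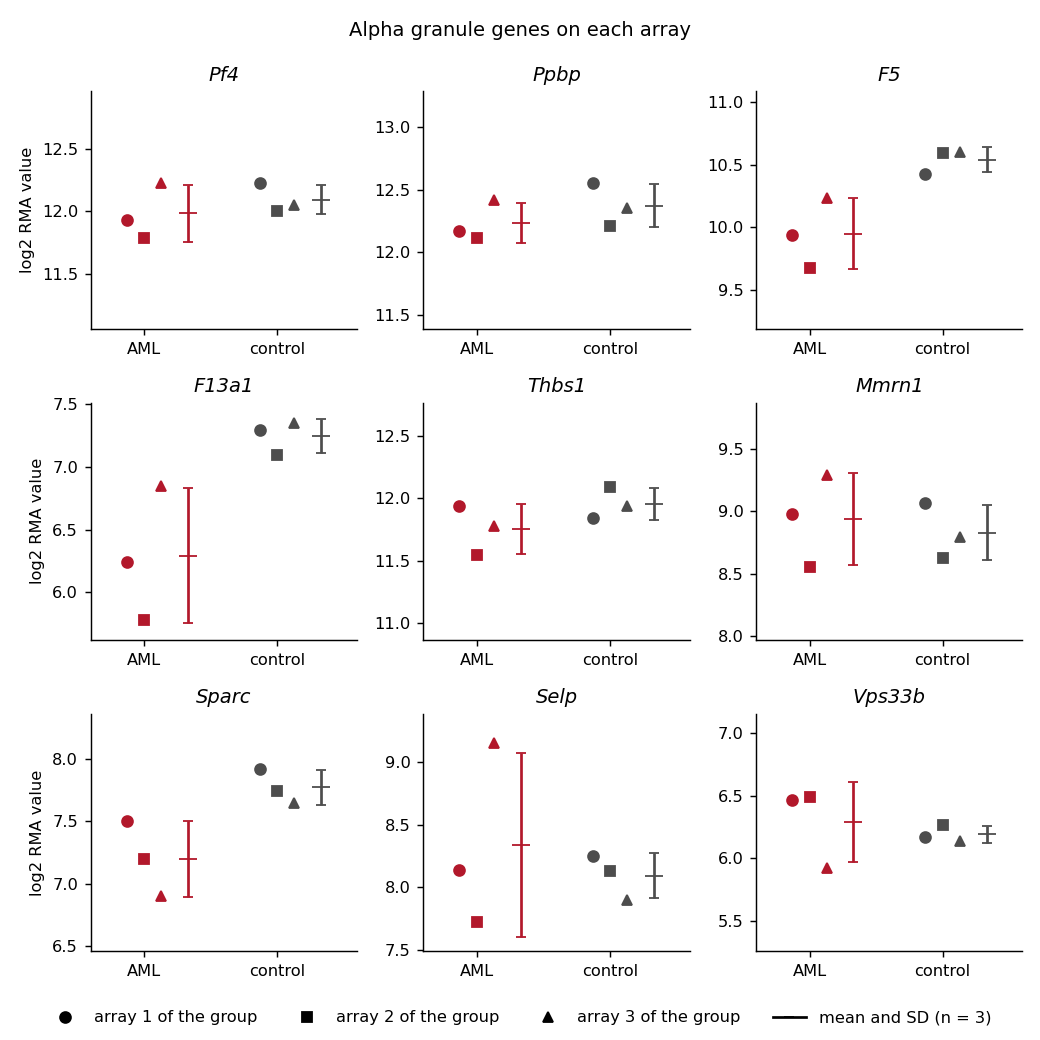
Log2 RMA value (vertical axis, each panel spanning the same range of log2 units) of the 9 alpha granule genes on each array, AML left and control right; the 3 symbols are the 3 arrays of a group, and bars give the mean and SD (n = 3). F5, F13a1 and Sparc have every AML array below every control array, and Selp has the widest spread in AML, from 7.73 to 9.15.

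The chemokine genes Pf4 and Ppbp had AML and control values that overlapped. Pf4 encodes platelet factor 4, a chemokine that binds heparin and other glycosaminoglycans, and had values of 11.93, 11.79 and 12.23 on the AML arrays, against 12.22, 12.00 and 12.05 on the control arrays. The groups overlapped, with AML array 3 as high as the highest control array. The difference was -0.11 (SE 0.13, 95% confidence interval -0.41 to 0.19, limma adjusted p = 0.546). Ppbp encodes pro-platelet basic protein, the precursor of a chemokine that attracts neutrophils. It had values of 12.17, 12.12 and 12.42 on the AML arrays, against 12.56, 12.21 and 12.35 on the control arrays. These too overlapped, with control array 1 the highest of all 6. The difference was -0.14 (SE 0.12, 95% confidence interval -0.42 to 0.15, limma adjusted p = 0.424). The intervals leave room for a level in AML up to 0.41 lower for Pf4 and 0.42 lower for Ppbp, so that the absence of a call is not a sign of equal levels.

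Pf4 and Ppbp are neighbours on chromosome 5, with 0 annotated genes between their starts, and their promoter windows are shown because these transcripts varied alike over the arrays of a group. The windows run from 250 bases before to 50 bases after the annotated start, are taken from RefSeq (mouse build GRCm38.p6), lie on the plus strand, and read 5′ to 3′. The Pf4 window is chr5:90772185-90772484 and the Ppbp window chr5:90768268-90768567. Capitals mark the GATA motif, searched as AGATAA and TGATAA on both strands.
Pf4: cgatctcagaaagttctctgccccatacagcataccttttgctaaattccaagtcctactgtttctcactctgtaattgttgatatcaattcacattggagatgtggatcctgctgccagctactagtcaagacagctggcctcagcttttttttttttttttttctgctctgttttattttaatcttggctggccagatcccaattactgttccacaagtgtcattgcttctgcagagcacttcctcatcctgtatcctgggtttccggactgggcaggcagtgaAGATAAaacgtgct
Ppbp: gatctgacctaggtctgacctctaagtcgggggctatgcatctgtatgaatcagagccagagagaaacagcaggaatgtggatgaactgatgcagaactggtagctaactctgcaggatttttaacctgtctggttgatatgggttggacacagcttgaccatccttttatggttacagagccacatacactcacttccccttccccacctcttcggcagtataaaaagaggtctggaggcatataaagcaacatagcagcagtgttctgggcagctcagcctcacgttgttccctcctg
The Pf4 window held 1 GATA match, AGATAA, beginning 36 bases after the start, and the Ppbp window held 0. Of 32851 promoter windows of that length, 18.6% held a GATA match. An ETS motif, searched as AGGAAG and CGGAAG on both strands, was matched 1 time in the Pf4 window and 0 times in the Ppbp window, and 46.5% of all windows held one. Over the 7 genes of the set with a window, 2 of 8 windows (those of Pf4 and Mmrn1, F13a1 having 2 windows) held a GATA match and 5 an ETS match. A match is a run of letters in a window and not a shown binding site.

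Of 5 other chemokine genes of chromosome 5 measured (Cxcl1, Cxcl2, Cxcl3, Cxcl5 and Cxcl15), 2 fell (40%, against 6.25% of all genes) and 0 rose (against 4.49%). The other 3, like Pf4 and Ppbp, had no call. Cxcl2, a chemokine gene that neutrophils and macrophages also express when activated, had values of 7.58, 7.91 and 6.81 on the AML arrays, against 9.70, 9.86 and 10.10 on the control arrays. All AML arrays lay far below all control arrays, by 2.45 on average (a 5.48-fold lower level, limma adjusted p = 0.00294). Cxcl1 fell by 1.10 to a mean of 5.08 in AML, which was not shown to be above background, against 6.18 in control (limma adjusted p = 0.00495). Cxcl5, which encodes a chemokine that mouse platelets also release, stood at 6.11 ± 0.23 in AML and 6.12 ± 0.40 in control (limma adjusted p = 0.977). The neutrophil and the monocyte markers of the sorts were lower in AML as well, and their part in the fall of Cxcl1 and Cxcl2 was not tested.

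Of the clotting factors, F5 was the gene of the set past the threshold. It encodes factor V, the cofactor with which factor Xa turns prothrombin into thrombin, and mouse megakaryocytes make the factor V that their platelets store. Its values were 9.94, 9.67 and 10.24 on the AML arrays, against 10.42, 10.59 and 10.60 on the control arrays. Every AML array lay below every control array, and the gap between AML array 3 and control array 1 was the narrowest. F5 fell by 0.59 (SE 0.15, 95% confidence interval -0.93 to -0.25), a 1.51-fold lower level (limma adjusted p = 0.0468). The call lay close to the threshold. It was lost without AML array 1 (limma adjusted p = 0.100), AML array 2 (0.0915), control array 1 (0.0659), control array 2 (0.157) or control array 3 (0.150), and it was kept without AML array 3 (0.0117). It was also lost under quantile normalization (0.0872), cyclic loess (0.0836), when every row of the table was tested (0.0841), with the replicate number as a block (0.0886) and with identity centring (0.304), while the difference stayed between -0.80 and -0.45 in all 17 alternatives.

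F13a1 had the lowest difference of the 9 genes, but did not pass the threshold. It encodes the A subunit of factor XIII, the transglutaminase that cross-links fibrin. In human platelets that subunit is held mostly in the cytosol, and monocytes and macrophages make it as well. The values were 6.24, 5.78 and 6.85 on the AML arrays, against 7.29, 7.10 and 7.35 on the control arrays. The groups did not overlap, and the AML arrays spread over more than a log2 unit, with an SD of 0.54, against 0.13 in control. The difference was -0.96 (SE 0.25, 95% confidence interval -1.55 to -0.37, limma adjusted p = 0.0544). It passed in 6 of 17 alternatives, among them without AML array 3 (-1.24, limma adjusted p = 0.00638) and under median centring (-1.08, limma adjusted p = 0.0398). The fall of 16 of 18 monocyte and macrophage markers in the same sorts stands beside this value, and its part in the difference was not tested.

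F5 and Selp are close to each other on chromosome 1, with 1 annotated gene starting between them, and their windows are shown because F5 fell while Selp did not pass the threshold. The source, build, strand and capitals are those given for Pf4. The F5 window is chr1:164151585-164151884 and the Selp window chr1:164115014-164115313.
F5: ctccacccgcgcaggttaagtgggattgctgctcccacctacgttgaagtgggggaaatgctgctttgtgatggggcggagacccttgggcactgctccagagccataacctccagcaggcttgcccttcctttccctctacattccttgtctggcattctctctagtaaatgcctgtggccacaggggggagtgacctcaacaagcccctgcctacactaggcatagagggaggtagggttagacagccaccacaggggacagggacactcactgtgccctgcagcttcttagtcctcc
Selp: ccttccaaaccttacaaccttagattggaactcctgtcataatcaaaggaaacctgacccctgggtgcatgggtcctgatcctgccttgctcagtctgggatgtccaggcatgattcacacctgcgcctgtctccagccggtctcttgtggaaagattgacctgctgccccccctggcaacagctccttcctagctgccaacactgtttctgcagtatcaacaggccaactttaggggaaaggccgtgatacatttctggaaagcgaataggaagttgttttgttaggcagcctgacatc
Both windows held 0 GATA matches, against the 18.6% of all windows that held one. The ETS motif was matched 1 time in the F5 window and 2 times in the Selp window.

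Selp encodes P-selectin, the granule membrane receptor that reaches the platelet surface on activation and binds leukocytes, and endothelial cells store it too. Its values were 8.14, 7.73 and 9.15 on the AML arrays, against 8.25, 8.13 and 7.90 on the control arrays. AML array 3 stood far above all others and AML array 2 below all others, so that the AML range held the control range inside it. The difference was +0.25 (SE 0.33, 95% confidence interval -0.54 to 1.04, limma adjusted p = 0.611), and it turned to -0.16 without AML array 3 and to -0.01 with array weights. Selp had the largest SD of the 9 genes in AML, 0.73, against 0.18 in control. The summed level of the endothelial and stromal markers, of which 4 fell and 1 rose, was 10.62, 10.49 and 10.24 on AML arrays 1, 2 and 3, and the part of endothelial transcripts in the values of Selp was not tested.

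**Figure D2:**
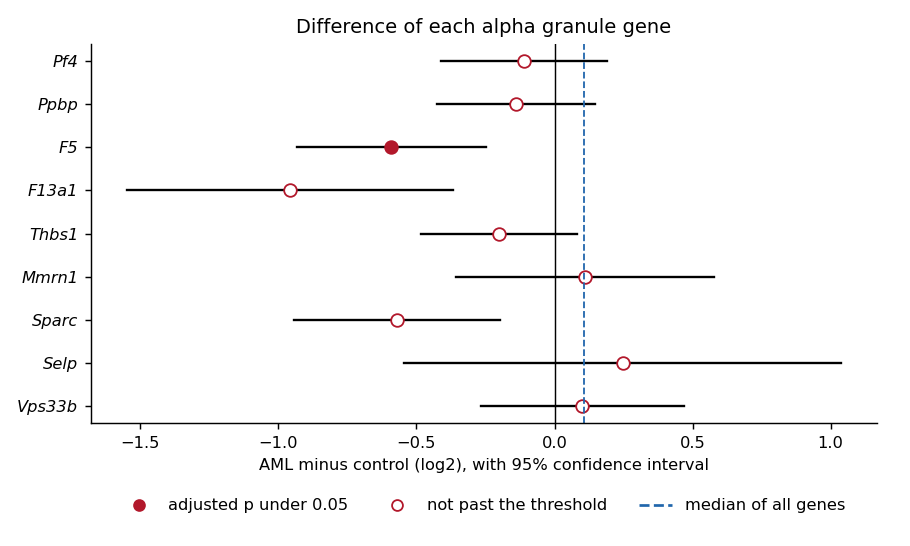
Difference of each of the 9 genes, AML minus control on the log2 scale (horizontal axis), with its 95% confidence interval from limma (lines, not adjusted for the number of genes); filled points passed an adjusted p of 0.05, and the dashed line is the median over all genes, +0.11. F5 is the filled point, the intervals of F13a1 and Sparc also lie below 0, and that of Selp is the widest.

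Of the adhesive and matrix cargo, Thbs1, Mmrn1 and Sparc, 0 genes passed the threshold. Thbs1 encodes thrombospondin 1, an adhesive glycoprotein of the granule. It had values of 11.94, 11.54 and 11.78 on the AML arrays, against 11.84, 12.09 and 11.94 on the control arrays. The groups overlapped, with AML array 2 the lowest. The difference was -0.20 (SE 0.12, 95% confidence interval -0.49 to 0.08, limma adjusted p = 0.264). Mmrn1 encodes multimerin 1, which binds factor V inside the granule in humans. It had values of 8.98, 8.55 and 9.29 on the AML arrays, against 9.06, 8.63 and 8.80 on the control arrays. The AML range again enclosed the control range. The difference was +0.11 (SE 0.20, 95% confidence interval -0.36 to 0.58, limma adjusted p = 0.706), or 0.003 relative to the median over all genes. Its sign turned under median centring (-0.01), with identity centring (-0.10) and without AML array 3 (-0.07).

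Sparc, also called osteonectin, encodes a collagen-binding protein of the granule that bone and stromal cells make too. Its values were 7.50, 7.20 and 6.90 on the AML arrays, against 7.92, 7.74 and 7.65 on the control arrays. All AML arrays lay below all control arrays, though AML array 1 came close to control array 3. The difference was -0.57 (SE 0.16, 95% confidence interval -0.94 to -0.20, limma adjusted p = 0.0628). It passed in 5 of 17 alternatives, among them without AML array 1 (-0.72, limma adjusted p = 0.0345) and under median centring (-0.69, limma adjusted p = 0.0377). The bone and stroma genes Col1a1, Col1a2 and Col3a1 stood at differences of +0.13, +0.12 and +0.11 and were not past the threshold (limma adjusted p 0.205 to 0.283). Vcam1, Lepr and Bglap of the same list stood at -0.69, -0.45 and +0.34, also without a call (limma adjusted p 0.0891 to 0.108). Lepr was not shown to be above background in either group. Cxcl12, a chemokine gene of stromal cells, fell by 0.76 to an AML mean not shown to be above background. Kitl fell by 0.34 and was not shown to be above background in either group, and Pdgfrb, a receptor gene of pericytes, rose by 0.40. Of all 14 endothelial and stromal markers, 4 fell and 1 rose, and 8 differences lay below 0. The part of stromal transcripts in the value of Sparc was not tested.

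Vps33b encodes a member of the Sec1/Munc18 family that acts in sorting proteins into the forming granule. Its values were 6.46, 6.49 and 5.92 on the AML arrays, against 6.17, 6.27 and 6.14 on the control arrays. AML array 3 was the lowest of all 6 and the other AML arrays the highest. The difference was +0.10 (SE 0.16, 95% confidence interval -0.27 to 0.47, limma adjusted p = 0.657), or -0.01 relative to the median over all genes, and its sign turned under median centring (-0.02) and with identity centring (-0.11).

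Among themselves 6 of the 9 genes followed a common order over the AML arrays. AML array 2 was the lowest of its group for 7 of the 9 genes and AML array 3 the highest for 6. The full order of array 2, array 1 and array 3 from low to high held for Pf4, Ppbp, F5, F13a1, Mmrn1 and Selp, which is 6 of 9 genes, against 20.6% of all genes. It also held for 12 of the 14 megakaryocyte identity genes. For Sparc and Vps33b array 3 was instead the lowest, and for Thbs1 array 1 was the highest. In control, array 1 was the highest for 5 of the 9 genes and for 12 of the 14 identity genes, against 42.0% of all genes. The spread was wider in AML for 8 of the 9 genes, Ppbp being the other, and for 61.9% of all genes. The median SD of the set was 0.30 in AML and 0.13 in control, against 0.12 in AML and 0.10 in control over all genes. All 9 genes were above background in both groups, against 12316 of the 30063 genes. The SD of genes at a like level was not compared.

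**Figure D3:**
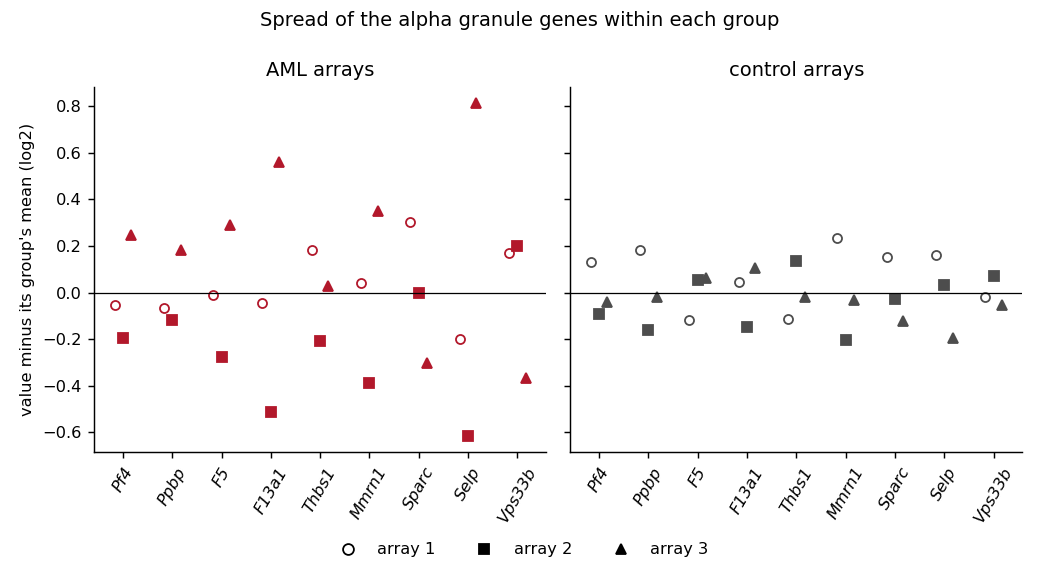
Value of each of the 9 genes on each array minus the mean of its own group (vertical axis, log2 units), AML arrays in the left panel and control arrays in the right; the 3 symbols are the 3 arrays. In AML, array 3 lies above the mean for 7 genes and array 2 below it for 8, while the control arrays have the smaller SD for every gene but Ppbp.

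Other cargo of the alpha granule, and proteins of its membrane, were examined in lists chosen by function. Of 21 measured genes of other cargo, out of 24 listed, 4 fell (19.0%, against 6.25% of all genes) and 0 rose (against 4.49%). The 6.25% includes dim genes, while 15 of the 21 were above background in at least 1 group. When only the 13242 genes above the background level were tested, 2020 were lower, 5 of them from this list. Without adjustment, over all genes, 5 of the 21 were lower and 4 higher at a p under 0.05. Their median difference was +0.09, or -0.02 relative to all genes. Tfpi, the gene of the tissue factor pathway inhibitor, had values of 5.76, 5.58 and 5.42 on the AML arrays, against 7.29, 6.95 and 6.94 on the control arrays, and fell 2.79-fold (limma adjusted p = 0.00144). Igf1, a growth factor gene, fell by 1.29 (limma adjusted p = 0.00792). Fn1, the fibronectin gene, had values of 5.99, 6.07 and 7.13 on the AML arrays, against 7.69, 8.19 and 7.89 on the control arrays. It fell by 1.53 (limma adjusted p = 0.0257), a call lost without AML array 1 or 2 and without control array 2 or 3 (limma adjusted p 0.0648 to 0.104). Srgn, the gene of serglycin, the proteoglycan on which Pf4 protein is stored, fell by 0.29 (limma adjusted p = 0.0425), and its call was lost on leaving out any single array (limma adjusted p 0.0579 to 0.140). The count of 4 was 2 on leaving out AML array 1 or 2, or control array 2 or 3. Monocytes and macrophages express Fn1, Igf1 and Srgn as well, and the part of their lower markers in these falls was not tested.

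Vwf, the von Willebrand factor gene, followed the order of Selp over the AML arrays, with values of 7.89, 7.46 and 8.39 on the AML arrays, against 7.80, 7.58 and 7.62 on the control arrays (difference +0.25, limma adjusted p = 0.438). Tgfb1, which encodes the growth factor stored in the granule in latent form, differed by +0.18 (limma adjusted p = 0.194). Fga, a fibrinogen chain gene, was not shown to be above background in either group, at 4.10 ± 0.004 in AML and 3.90 ± 0.11 in control. Fibrinogen is taken up from plasma by megakaryocytes rather than made by them.

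Of 13 measured membrane genes, out of 14 listed, 2 fell (15.4%, against 6.25% of all genes) and 0 rose (against 4.49%). The 6.25% includes dim genes, while 12 of the 13 were above background in at least 1 group. When only the 13242 genes above the background level were tested, 2020 were lower, 2 of them from this list. In that test 1053 were higher, 1 of them from this list. Without adjustment, over all genes, 2 of the 13 were lower and 2 higher at a p under 0.05. Cd36, the gene of a thrombospondin and fatty acid receptor that macrophages and endothelial cells also carry, had values of 5.32, 4.46 and 4.38 on the AML arrays, against 6.74, 6.70 and 6.91 on the control arrays. Its AML mean of 4.72 was not shown to be above background, and the measured difference was -2.07 (limma adjusted p = 0.00371). Cd9, a tetraspanin gene, fell by 0.41 (limma adjusted p = 0.0396), a call that was kept without AML array 3 and lost on leaving out any of the other arrays (limma adjusted p 0.0840 to 0.127). The median difference of these 13 genes was +0.18, or +0.08 relative to all genes.

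Of 24 measured genes of granule biogenesis and protein sorting, 3 fell and 0 rose, which is 12.5% against 6.25% of all genes lower. The 6.25% includes genes not shown to be above background, while 21 of the 24 were above it in at least 1 group. When only the 13242 genes above the background level were tested, 2020 were lower, a larger share than 6.25%. Of these, 4 were from this list. Without adjustment 8 of the 24 were lower and 1 higher at a p under 0.05. Their median difference was -0.20, and 22 of 24 differences lay below 0. Lyst, a BEACH domain gene of the family of Nbeal2 that shapes lysosome-related organelles, had values of 7.75, 7.43 and 7.16 on the AML arrays, against 8.33, 8.59 and 8.47 on the control arrays. It fell 2.02-fold (limma adjusted p = 0.0104, or 0.0542 without control array 2 and 0.0509 without control array 3). Vps4b, an ATPase of multivesicular body sorting, fell by 0.54 (limma adjusted p = 0.0328), and M6pr, a mannose 6-phosphate receptor gene, fell by 0.46 (limma adjusted p = 0.0413). The call of Vps4b was lost on leaving out any AML array or control array 2 or 3 (limma adjusted p 0.0548 to 0.128), and that of M6pr without array 2 or 3 of either group (limma adjusted p 0.0622 to 0.150). The count of 3 was 1 when AML array 2 was left out and 0 when control array 2 or 3 was, and it was 1 with the replicate block, over every row and with identity centring, and 6 under median centring. Vipas39, whose protein works with VPS33B, was not shown to be above background in either group (4.84 ± 0.11 in AML and 4.93 ± 0.03 in control). Gfi1b, a transcription factor gene whose mutation in humans reduces alpha granules, stood at 8.12 ± 0.26 in AML and 7.70 ± 0.21 in control (difference +0.42, limma adjusted p = 0.125).

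The list of granule secretion, which also holds genes of other vesicle transport such as Stx6 and Rab4a, held more lower genes. Of 25 measured, 8 fell and 0 rose, which is 32.0% against 6.25% of all genes lower. All 25 were above background in at least 1 group. When only the 13242 genes above the background level were tested, 2020 were lower, a larger share than 6.25%. Of these, 9 were from this list. Without adjustment 13 of the 25 were lower and 0 higher at a p under 0.05. The list's median difference was -0.19, against +0.11 over all genes and +0.01 over genes whose mean was above the background level. Stxbp3, a Munc18 gene, had values of 6.62, 6.43 and 6.58 on the AML arrays, against 7.45, 7.38 and 7.60 on the control arrays. The groups lay wide apart, a 1.91-fold lower level in AML (limma adjusted p = 0.00186). Snap23, the gene of the plasma membrane SNARE of platelets, fell by 0.63 (limma adjusted p = 0.0113). Rab8a, a small GTPase gene of vesicle transport, fell by 0.58 (limma adjusted p = 0.0221), a call lost without array 2 of either group or control array 3 (limma adjusted p 0.0661 to 0.0968). The count of 8 became 4 when AML array 1 was left out, 3 when AML array 2 was, and 2 when control array 2 or 3 was, and it was 2 with the replicate block, 2 over every row and 1 with identity centring. Leukocytes use much of the same secretion machinery, and the part of the lower monocyte and neutrophil markers and the higher blast markers in these values was not tested.

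Other genes of platelet secretion, Vamp8, Unc13d and Stxbp2, which are named here whatever their p, were not past the threshold. Vamp8, the main granule SNARE gene of platelets, stood at 9.24 ± 0.07 in AML and 9.19 ± 0.07 in control (limma adjusted p = 0.638). Unc13d, the gene of the priming factor Munc13-4, stood at 6.67 ± 0.06 in AML and 6.58 ± 0.04 in control (limma adjusted p = 0.375). Stxbp2, whose loss in humans impairs platelet secretion, stood at 7.92 ± 0.05 in AML and 8.04 ± 0.10 in control (limma adjusted p = 0.301).

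**Figure D4:**
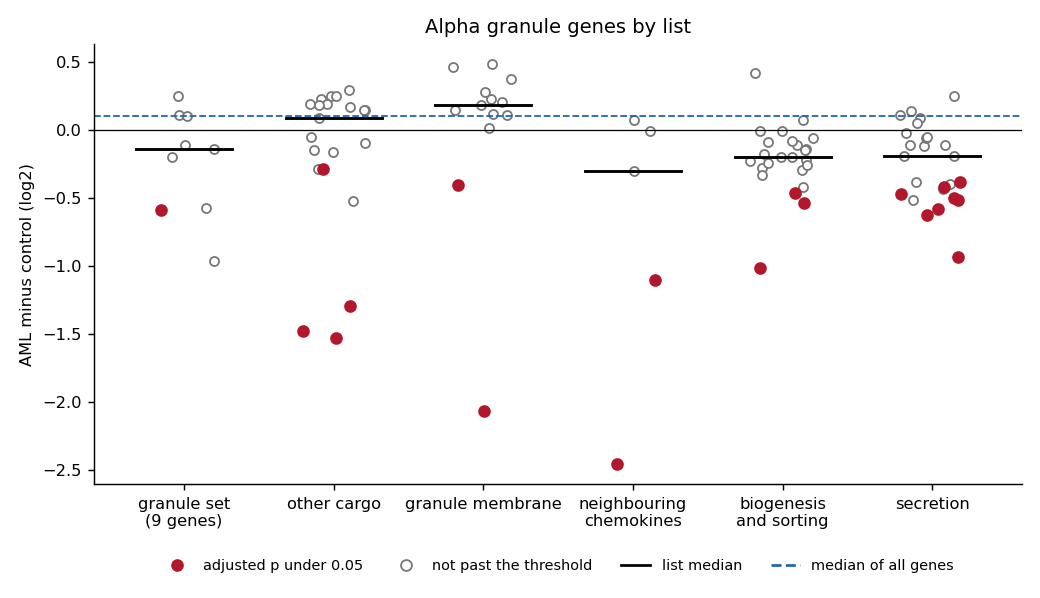
Differences of single genes, AML minus control on the log2 scale (vertical axis), for the set of 9 and for 5 lists of related genes (horizontal axis, points spread sideways for legibility); filled points passed an adjusted p of 0.05, black lines are list medians and the dashed line is the median over all genes. Every filled point lies below 0, with Cxcl2 at -2.45 the lowest among genes above background in both groups.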

How the data were processed

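Total RNA of sorted megakaryocytes was biotin-labelled and measured on Affymetrix arrays, per the labels' protocols. The authors deposited log2 expression values made with RMA (no version stated), per the submitters' processing notes. The array's genome build is not given in the sources here. Of 72688 rows, 30604 had a single platform symbol. Names were updated through RefSeq (GRCm38.p6), and for each gene its brightest row was kept, giving 30063 genes.

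Deposited values were fitted as given with limma (lmFit, then eBayes with no trend; two-sided AML against control; Benjamini-Hochberg adjustment over all genes), with no filter. The fit was tested on simulated data. The members and lists were chosen with earlier results of these data known. In each list every gene past the threshold is named where there are 5 or fewer, otherwise the 3 with the smallest p in each direction, plus Vwf, Fga, Vipas39, Gfi1b, Vamp8, Unc13d, Stxbp2, Cxcl5 and Tgfb1. Genes of marker lists that are named beside a result were chosen after their values were seen. Listed genes with no row of their own were not analysed here. Array medians over genes were 5.29 to 5.32 in AML and 5.16 to 5.24 in control. Same-numbered arrays of the 2 groups were not treated as pairs. The software was R 4.3.3 with limma 3.58.1 and the data.table package (1.17.8), and Python 3.11.15 with matplotlib 3.10.9, numpy 2.4.6 and pandas 2.3.3.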

Additional observations from a re-analysis of the deposited data

How the results depend on the processing

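The 9 differences, the counts and the named list genes were recomputed under 18 alternatives, of which centring each array on its megakaryocyte identity genes was chosen after seeing the data. The count of members higher was 0 in all of them. The count of members lower was 1 as reported, 0 with the replicate number as a block, under quantile normalization, under cyclic loess and over every row of the table, 3 under median centring, with array weights and with dim genes left out at either level, and 0 to 2 on leaving out single arrays. F5 lost its call with the replicate block (-0.59, adjusted p = 0.0886), under quantile normalization (-0.53), cyclic loess (-0.57), over every row of the table (-0.59) and with identity centring (-0.80), and ranged from -0.73 to -0.45 on leaving out single arrays. F13a1 passed under median centring (-1.08), with array weights (-1.05), with dim genes left out at either level (-0.96) and with identity centring (-1.17), and ranged from -1.24 to -0.70 on leaving out arrays. Sparc passed under median centring (-0.69), with array weights (-0.41) and with dim genes left out at either level (-0.57), and ranged from -0.72 to -0.42. Pf4, Ppbp and Thbs1 kept their sign and no call in the 17 alternatives that refit them, and Mmrn1, Selp and Vps33b, also without a call, turned sign in 3, 2 and 2 of them. The count of all genes past the threshold, 3230, was 1067 with the replicate block, 7853 with array weights, 815 with identity centring, 1565 with a 1.5-fold minimum, and 967 to 3606 on leaving out arrays (1938 and 1473 for AML arrays 1 and 2, and 967 and 1058 for control arrays 2 and 3). Deviations of same-numbered arrays from their group means correlated at -0.36, 0.14 and -0.29 for numbers 1, 2 and 3. Those of AML array 3 and control array 1 correlated at 0.43. With 3 arrays per group such values cannot show whether same-numbered arrays shared a source, which was not tested. Lower calls with the replicate block numbered 1 in the membrane list, 1 in biogenesis, 2 in secretion, 2 in other cargo and 2 among paralogs, and over every row 1, 1, 2, 2 and 3. With a 1.5-fold minimum they were 1 in membrane, 1 in biogenesis, 2 in secretion and 3 among paralogs, and with identity centring 1 in membrane, 1 in biogenesis and 1 in secretion. Quantile normalization and cyclic loess each left 1 lower in membrane, median centring gave 6 lower in biogenesis, and leaving out dim genes 3 lower paralogs at the median level and 2 at the receptor level. On leaving out arrays the lower counts ran from 1 to 2 in membrane, 0 to 3 in biogenesis, 2 to 7 in secretion, 2 to 4 in other cargo and 3 to 6 among paralogs, and the higher counts from 0 to 1 in membrane and 0 to 1 among paralogs. Higher calls appeared as 1 in membrane (quantile normalization, cyclic loess, array weights and both dim gene filters), 1 in other cargo (quantile normalization and cyclic loess) or 4 (array weights), and as 2 paralogs with array weights, and the 1 higher paralog became 0 with the block, median centring, every row, identity centring and the 1.5-fold minimum. Beyond the fewer genes or arrays that some settings use, the causes were not tested.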

Other observations

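Of 15 measured paralogs of the granule genes, out of 16 listed, 5 fell and 1 rose, together 40% against 10.7% of all genes. Their median difference was -0.003, and 10 were not shown to be above background in either group. Tgm2, the gene of tissue transglutaminase and a relative of F13a1, had values of 8.14, 7.87 and 7.40 on the AML arrays, against 8.98, 9.45 and 9.65 on the control arrays, and fell 2.94-fold (limma adjusted p = 0.00942). Emilin2, an extracellular matrix gene of the family of Mmrn1, had values of 6.76, 6.80 and 6.76 on the AML arrays, against 7.73, 8.03 and 8.15 on the control arrays, and fell 2.29-fold (limma adjusted p = 0.0018). The AML arrays lay below all control arrays for both genes. F8, the gene of clotting factor VIII and the paralog of F5, stood at 3.69 ± 0.05 in AML and 4.67 ± 0.06 in control (limma adjusted p = 7.2e-04), and Smoc1, of the family of Sparc, at 5.46 ± 0.13 in AML and 5.03 ± 0.03 in control (limma adjusted p = 0.0264). Neither F8 nor Smoc1 was shown to be above background in either group. The count of 5 was 3 on leaving out AML array 1, control array 2 or control array 3. The rise of Smoc1 lost its call under median centring (limma adjusted p = 0.0781), and on leaving out AML array 1 or 2 or each control array in turn (limma adjusted p 0.0507 to 0.112). Tgm2 and Emilin2 are expressed by macrophages, whose markers were lower in AML, and the part of that in their falls was not tested.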
